A study of Homo sapiens with 6 samples.

Results

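The 36 genes described here are listed as tissue-specific regulators of splicing, a name that not every one of them fits. They were taken by name from published families of RNA-binding proteins. These are the 3 RBFOX paralogs, the PTBP, NOVA, ELAVL, CELF and MBNL families, and the STAR proteins QKI and KHDRBS1 to KHDRBS3. Also included are SRRM3 and SRRM4, ESRP1 and ESRP2, RBM20, RBM24 and RBM38, RBMS1 and RBMS3, and MSI1 and MSI2. All 36 were found by symbol among the 58051 Ensembl genes of the count files. A172 is a human cell line established from a glioblastoma. Both groups were stable A172 lines made with a lentiviral expression plasmid delivered in particles from HEK293T cells: the RBFOX1 plasmid gave the RBFOX1 cells (3 libraries) and the GFP plasmid gave the control cells (3 libraries). The study describes the libraries of a group as biological replicates, but the sources do not say whether they came from separate transductions. The p-values thus set the difference between the groups against the spread between these libraries. If each group came from a single transduction, an effect of RBFOX1 and a difference between the lines cannot be told apart. The question put to the data was which of these regulators differed in RNA level once RBFOX1 was supplied.

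Vertebrate alternative splicing is steered by a small set of RNA-binding proteins with restricted expression. RBFOX proteins bind the motif UGCAUG, here given in DNA letters as TGCATG, next to alternative exons and in 3' UTRs, and PTBP1 represses neuronal exons, among them an exon that its neuronal paralog PTBP2 needs for a stable transcript. Many of these factors bind transcripts of their own gene and of each other, often at exons whose inclusion or skipping sends the transcript to nonsense-mediated decay, and RBFOX2 is known for this kind of control. Gene-level counts measure the amount of RNA from each gene and do not show which exons it holds.

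Of the 36 regulators, 26 reached 10 counts in total over the 6 libraries and were tested with edgeR's quasi-likelihood test, adjusted over all 20536 genes tested. Apart from RBFOX1 itself, 25 were tested. RBFOX1 cells had more RNA of 11 of them and less of 6 at an adjusted p under 0.05, and 8 did not pass the threshold. This is 68% of those tested, beside 46.7% called among all genes (23.7% higher, 22.9% lower). Strongly expressed genes were called more often. Among genes with a mean of at least 50 normalized counts (counts scaled to the mean effective library size), a division chosen after seeing the data, 10 of 18 regulators were higher and 5 lower, which is 83.3% beside 63.8% of all such genes. The median log2 fold change of the 25 was 0.23, against 0.0051 over all genes tested, and their median absolute log2 fold change was 0.42 against 0.38. Most of the differences were small, and 8 of the 25 passed the threshold with a log2 fold change of at least 0.5 in either direction, which 26.2% of all genes did. The 3 RBFOX1 libraries lay wholly above or wholly below the 3 GFP libraries in 17 of the 25, where 53.4% of all genes tested did so.

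**Figure D1:**
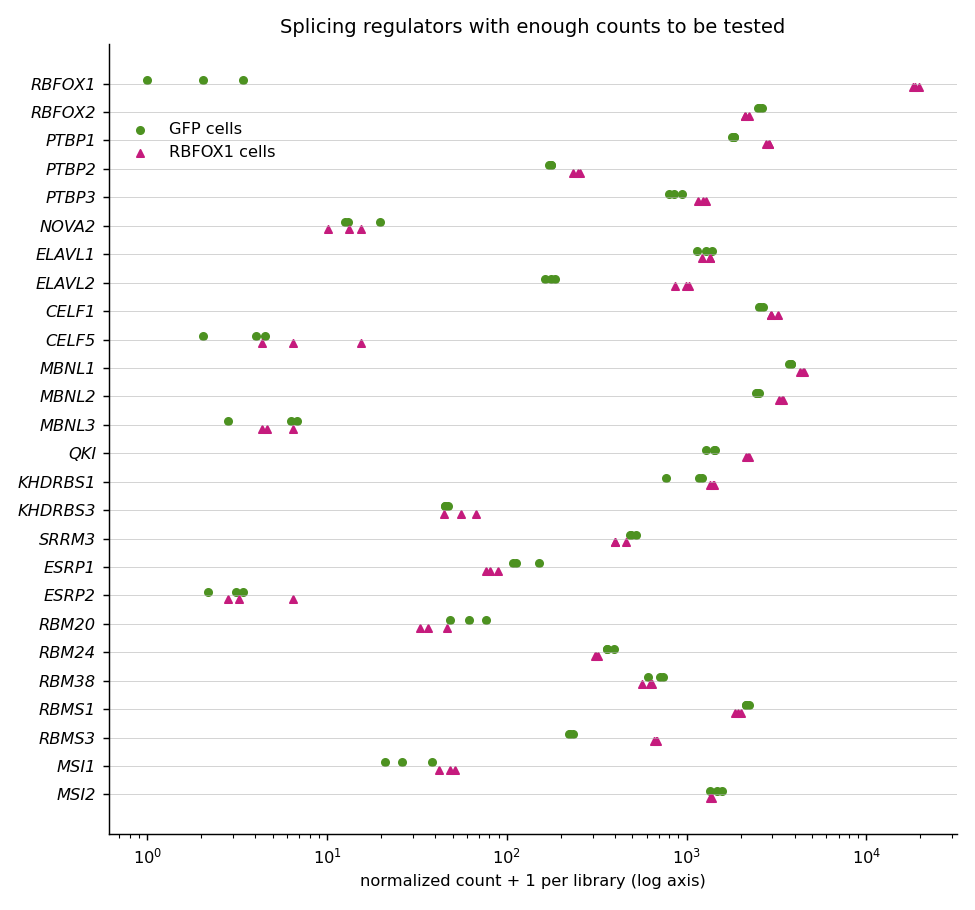
Normalized count plus 1 in each library, on a log axis, for the 26 tested regulators; circles are the 3 GFP libraries and triangles the 3 RBFOX1 libraries. Apart from RBFOX1, ELAVL2 and RBMS3 show the widest gaps between the groups, and most other genes show narrow ones.

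The libraries held 7433414 to 23249221 counts on genes, with RBFOX1 replicate 1 the shallowest and GFP replicate 1 the deepest. A count of 3, the most that a count of 0 allows, was worth 1.82 to 5.44 normalized counts. GFP replicate 1 stood apart from the other GFP libraries, since its counts differed from theirs by 8.08 and 8.23 in chi-square per degree of freedom. The other pairs of replicates differed by at most 2.80. Bulk libraries cannot tell apart a change in every cell from a change in the share of cells that express a gene.

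The motif of the supplied protein was searched, on the transcript strand, in the 3' UTR of the canonical transcript of each regulator (GENCODE 44, GRCh38). It occurred 45 times, in 19 of the 36 genes. Sites are given for 6 of the regulators that differed between the groups, to set the binding sequence beside the values that follow. MBNL1, CELF1, SRRM3 and RBMS1 also differed and hold sites, which are not printed, and QKI has further sites beyond those printed. The motif is in capitals and each window holds up to 11 bases on either side, written 5′ to 3′ on the transcript strand.
RBFOX2 site, chr22:35741305-35741310, minus strand: atcacagtacaTGCATGattctttttca
PTBP2 site, chr1:96814346-96814351, plus strand: tcaggaactggTGCATGtatttttcaaa
PTBP3 site 1, chr9:112223273-112223278, minus strand: atttataaaccTGCATGttttctttgaa
PTBP3 site 2, chr9:112218591-112218596, minus strand: taaatgcgtagTGCATGgttaattcaag
RBMS3 site 1, chr3:30007905-30007910, plus strand: taatgaaaaacTGCATGgtgttaaaagc
RBMS3 site 2, chr3:30008052-30008057, plus strand: ctttcaatttaTGCATGactccaaaaaa
RBMS3 site 3, chr3:30008306-30008311, plus strand: cttaatttgagTGCATGaaccactgcag
QKI site 1, chr6:163571170-163571175, plus strand: atgatgcatcaTGCATGaaccttcggtc
QKI site 5, chr6:163576633-163576638, plus strand: gaacggagaacTGCATGaccgtacatga
QKI site 6, chr6:163576675-163576680, plus strand: actggaaaaagTGCATGtgcttcatcct
QKI site 7, chr6:163576743-163576748, plus strand: cccccagaaaaTGCATGtatcaatatga
RBM20 site, chr10:110836482-110836487, plus strand: catgtatccccTGCATGaggagctgagt
The 3 sites of RBMS3 begin 4043, 4190 and 4444 bases after the stop codon, where the whole 3' UTR has 6524 bases. Of the 7 sites of QKI, the last 3 begin 5923, 5965 and 6033 bases after the stop codon, close to each other in a 3' UTR that has 7882 bases.

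The supplied gene was checked before its paralogs. RBFOX1 (ENSG00000078328, chromosome 16, 5239802 to 7713340, plus strand) had 4, 0 and 1 counts in the GFP replicates and 10276, 16467 and 21451 counts in the RBFOX1 replicates, so the level in each library matched its label. Its log2 fold change was 13.55 (standard error, SE, 0.129, adjusted p = 2.45e-23, edgeR's quasi-likelihood test), a value whose size rests on the few counts in GFP cells. It lay between 13.16 and 14.73 over the alternatives run, so this SE understates the uncertainty that those few counts bring. The construct was an open reading frame, and its reads and those of the cells' own gene were not separated.

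RBFOX2, the paralog that A172 cells express, was lower in RBFOX1 cells. It had 2539, 2616 and 2494 normalized counts in the GFP replicates and 2113, 2109 and 2231 in the RBFOX1 replicates, so that the groups did not overlap although the fall was small. The log2 fold change was -0.24 (SE 0.0490, adjusted p = 0.000347). RBFOX2 lies on chromosome 22 from 35738736 to 36028824 on the minus strand, and its 3' UTR holds 1 TGCATG. RBFOX3, the paralog known as the neuronal nuclear antigen NeuN, had 2, 1 and 0 counts in the GFP libraries and 1, 1 and 3 counts in RBFOX1 cells and was not tested. The canonical transcripts of RBFOX1 and RBFOX2 share an identical run of at most 47 bases and no window of a whole 100-base read. Per kilobase of exon, RBFOX2 made up 99.9% of the family's normalized counts in GFP cells and 12.7% ± 0.102 (SD, n = 3) in RBFOX1 cells, with nearly all of the rest from RBFOX1. These shares depend on the length used for RBFOX1, since only its reading frame was supplied.

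The ELAVL family held the largest change outside RBFOX1. ELAVL1, or HuR, is a widely expressed protein that binds AU-rich elements and stabilizes transcripts, while ELAVL2, or HuB, is a member found mainly in neurons and germ cells. ELAVL2 (ENSG00000107105, chromosome 9, 23690104 to 23826337, minus strand) had 161.5, 174.0 and 184.4 normalized counts in the GFP replicates and 861.6, 1030 and 991.6 in the RBFOX1 replicates. Every RBFOX1 library thus stood far above every GFP library. The log2 fold change was 2.49 (SE 0.0838, adjusted p = 4.54e-15), and it lay between 2.44 and 2.56 over the alternatives run. ELAVL1 did not pass the threshold, with 1267 ± 122 normalized counts in the GFP libraries and 1305 ± 76.5 in RBFOX1 cells (SD of 3 libraries each) and a log2 fold change of 0.055 (SE 0.0676, adjusted p = 0.551) that turned negative, at -0.017, without GFP replicate 1. The neuronal members ELAVL3 and ELAVL4 had at most 2 counts in any library. Read per kilobase of exon, ELAVL2 rose from 15.6% ± 0.442 of the family to 49.9% ± 0.939 (SD of 3 libraries each), so that in RBFOX1 cells ELAVL2 and ELAVL1 stood at 13.5 CPM per kilobase each. With coding length in place of exon length, ELAVL2 made up 40.0% in RBFOX1 cells. The 3' UTR of ELAVL2 holds no TGCATG.

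**Figure D2:**
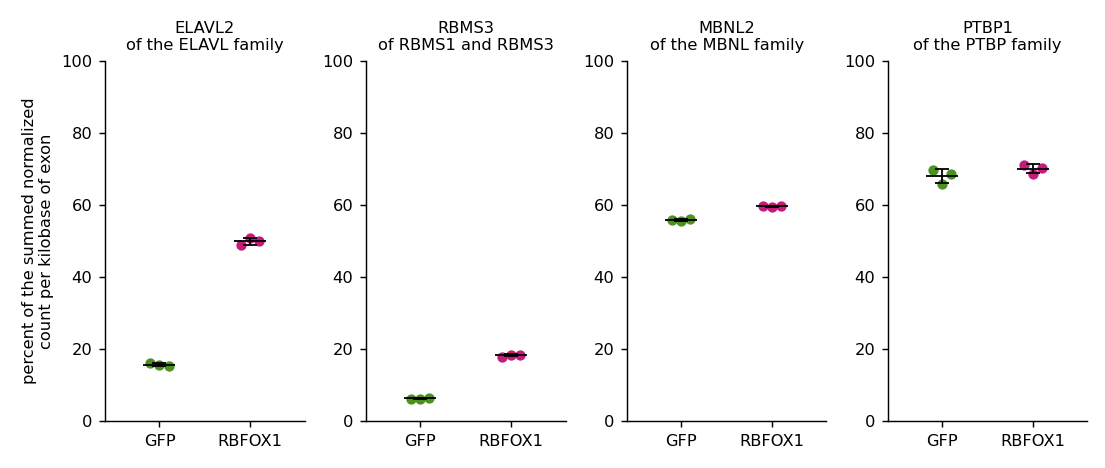
Percent of a family's summed normalized count per kilobase of exon held by ELAVL2, RBMS3, MBNL2 and PTBP1 in each library (points), with the mean and SD over 3 libraries (bars). ELAVL2 and RBMS3 take a larger share of their families in all RBFOX1 libraries, the share of MBNL2 moves slightly, and that of PTBP1 overlaps between the groups.

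All 3 PTBP genes rose, by similar amounts. PTBP1, the polypyrimidine tract-binding protein of non-neuronal cells (chromosome 19, 797075 to 812327), had 1827, 1781 and 1837 normalized counts in the GFP libraries and 2855, 2778 and 2870 in RBFOX1 cells. Its log2 fold change was 0.64 (SE 0.0476, adjusted p = 7.52e-10). PTBP3, a paralog first described in blood cells, rose from 862 ± 71.0 to 1224 ± 59.4 normalized counts (SD of 3 libraries each), a log2 fold change of 0.52 (SE 0.0649, adjusted p = 1.35e-06). PTBP2, the neuronal paralog, had 170.6, 175.2 and 175.9 normalized counts in the GFP libraries and 246.7, 255.4 and 232.8 in RBFOX1 cells, a log2 fold change of 0.49 (SE 0.0903, adjusted p = 0.000127). In each of the 3 genes the groups did not overlap. Their relative levels moved little. Per kilobase of exon PTBP1 made up 68.1% ± 1.98 of the family in GFP and 70.1% ± 1.28 in RBFOX1 cells (SD of 3 libraries each), which overlapped, and PTBP2 stayed the least abundant at 2.44% and 2.26%. TGCATG occurs once in the 3' UTR of PTBP2 and in 2 places in that of PTBP3, and PTBP1 has none.

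RBMS1 and RBMS3, which encode related single-stranded nucleic acid-binding proteins, moved in opposite directions. RBMS3 (chromosome 3, 28574791 to 30010391, plus strand) had 221.6, 223.0 and 232.8 normalized counts in the GFP libraries and 682.0, 675.0 and 654.7 in RBFOX1 cells. Its log2 fold change of 1.57 (SE 0.0718, adjusted p = 4.48e-13) was the second largest among the regulators that passed the test, RBFOX1 apart. Of the 18437 exon bases of RBMS3, 1029 are shared with another annotated gene on the same strand, where reads would not have been counted. RBMS1 had 2139, 2148 and 2216 normalized counts in the GFP libraries and 1999, 1918 and 1851 in RBFOX1 cells, a log2 fold change of -0.18 (adjusted p = 0.00657) that missed the threshold without RBFOX1 replicate 3 (adjusted p = 0.0656). RBMS1 remained the main member per kilobase of exon, at 93.8% of the pair in GFP and 81.8% in RBFOX1 cells. Its 3' UTR holds 1 TGCATG and that of RBMS3 holds 3.

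Among the STAR proteins, which share an RNA-binding domain of the KH type, QKI and KHDRBS1 were higher. QKI, which directs splicing in glia and muscle (chromosome 6, 163414000 to 163578592, plus strand), had 1287, 1443 and 1425 normalized counts in the GFP libraries and 2227, 2188 and 2141 in RBFOX1 cells. Its log2 fold change was 0.66 (SE 0.0546, adjusted p = 3.69e-09), the largest of the STAR genes. KHDRBS1, or Sam68, had 771.0, 1223 and 1168 normalized counts in the GFP libraries and 1420, 1408 and 1345 in RBFOX1 cells, so that GFP replicate 1 was far below the rest of its group. The log2 fold change was 0.42 (SE 0.111, adjusted p = 0.00385), 0.22 without that library (adjusted p = 0.000911), and it missed the threshold with DESeq2 (adjusted p = 0.11). KHDRBS3 had a log2 fold change of 0.32 (SE 0.177, adjusted p = 0.148) at 45.0 ± 1.16 and 55.0 ± 11.5 normalized counts (SD of 3 libraries each). KHDRBS2, a neuronal paralog, had no count in any library.

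The MBNL and CELF proteins act in opposite ways on many exons of muscle development. MBNL1 and MBNL2 were among the most highly expressed regulators and both rose. MBNL2 (chromosome 13, 97221434 to 97394120) went from 2427, 2464 and 2534 normalized counts in GFP to 3285, 3447 and 3404 in RBFOX1 cells, a log2 fold change of 0.45 (SE 0.0473, adjusted p = 1.18e-07). MBNL1 had a log2 fold change of 0.23 (SE 0.0465, adjusted p = 0.000405), with the groups apart at 3763 ± 65.0 and 4401 ± 134 normalized counts (SD of 3 libraries each). MBNL2 made up 55.8% ± 0.281 of the family per kilobase of exon in GFP and 59.6% ± 0.136 in RBFOX1 cells (SD of 3 libraries each), a shift of 3.79 percentage points with no overlap. Per kilobase of coding sequence it made up 39.1% and 42.8%, so which gene leads the family depends on the length used. MBNL3 had 3 to 5 counts in each library, too few to give it a direction. CELF1, the broadly expressed CELF protein, rose by 0.23 on the log2 scale (SE 0.0508, adjusted p = 0.000722), from 2588 ± 75.9 to 3047 ± 157 normalized counts (SD of 3 libraries each). It made up over 99% of its family per kilobase of exon in every library. CELF5 had 5, 3 and 1 counts in the GFP libraries and 8, 3 and 6 in RBFOX1 cells and did not pass the threshold (adjusted p = 0.0944). CELF3 was at 0 in the GFP libraries, against counts of 1, 1 and 4 in RBFOX1 cells, CELF4 had at most 1 count in a library, and CELF2 and CELF6 had none. For CELF6 a count of 0 says little, because 3212 of its 3616 exon bases are shared with another annotated gene on the same strand.

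**Figure D3:**
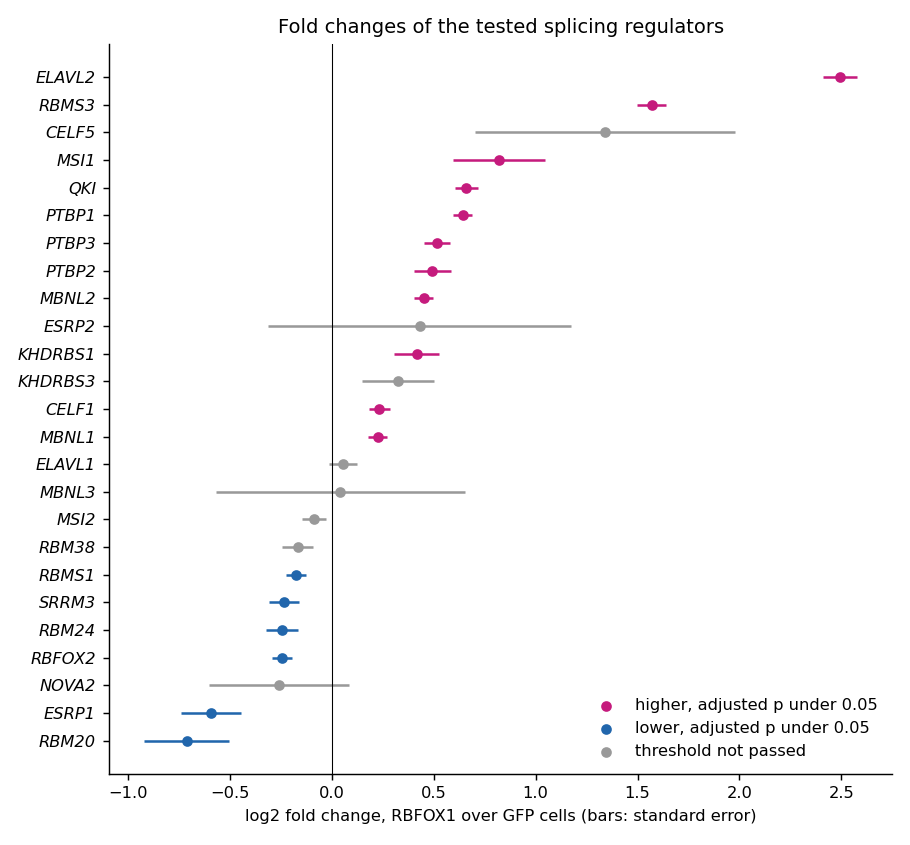
Log2 fold change of RBFOX1 over GFP cells with its standard error for the 25 tested regulators other than RBFOX1, in order of size. ELAVL2 at 2.49 and RBMS3 at 1.57 stand beyond all other genes that passed the threshold, which lie between -0.71 and 0.82.

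The 6 regulators that were lower included RBFOX2 and RBMS1 above and 4 factors named for epithelial, muscle or neuronal splicing. ESRP1, the epithelial splicing regulatory protein (chromosome 8, 94641074 to 94707466), had 107.5, 150.6 and 111.7 normalized counts in the GFP libraries and 88.9, 75.5 and 79.4 in RBFOX1 cells. Its log2 fold change was -0.59 (SE 0.147, adjusted p = 0.00237). ESRP2 had at most 4 counts in any library. RBM20, the factor that controls titin splicing in the heart, had 47.4, 60.7 and 75.8 normalized counts in the GFP libraries and 45.3, 35.5 and 32.0 in RBFOX1 cells, with a log2 fold change of -0.71 (SE 0.209, adjusted p = 0.00826) that missed the threshold without GFP replicate 3 (adjusted p = 0.0506) or without RBFOX1 replicate 3 (adjusted p = 0.068). RBM24, a splicing regulator of skeletal and heart muscle, fell by 0.24 (SE 0.0775, adjusted p = 0.0139) and SRRM3, which acts on neuronal microexons, by 0.23 (SE 0.0757, adjusted p = 0.0154). These falls of RBM24 and SRRM3 were near the threshold, with adjusted p-values up to 0.0841 and 0.091 over the alternatives run. Leaving out GFP replicate 3 or RBFOX1 replicate 3 each left 3 regulators lower in place of 6.

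Of the remaining regulators, MSI1 passed the threshold at low counts and the others did not pass or were not tested. MSI1, a Musashi protein of neural stem cells, had 20.0, 37.4 and 25.3 normalized counts in the GFP libraries and 47.2, 41.1 and 50.2 in RBFOX1 cells, higher in every RBFOX1 library, by 0.82 on the log2 scale (SE 0.227, adjusted p = 0.00536, or 0.0532 with DESeq2). Without GFP replicate 1 the log2 fold change of MSI1 was 0.58 (adjusted p = 0.0472). Its paralog MSI2 was far more abundant, at 1462 ± 114 and 1370 ± 18.3 normalized counts (SD of 3 libraries each), with a log2 fold change of -0.088 (adjusted p = 0.247, or 0.0186 without GFP replicate 1). MSI1 went from 11.8% to 19.6% of the pair per kilobase of exon, but from 1.66% to 2.96% per kilobase of coding sequence, so its share depends on the length used. RBM38, a p53 target, had a log2 fold change of -0.17 (SE 0.0757, adjusted p = 0.081, or 0.0107 without GFP replicate 2). NOVA2, a neuronal splicing factor, had 11 to 20 counts in the GFP libraries and 8 to 11 in RBFOX1 cells (adjusted p = 0.582), and NOVA1 had none. SRRM4, the partner of SRRM3 in neuronal microexon splicing, had a single count, in GFP replicate 1. Of the 10 regulators that were not tested, all have at most 4 counts in each library, and 4 of them (NOVA1, CELF2, CELF6 and KHDRBS2) have none.

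The presence of the RBFOX motif was set beside the fold changes. TGCATG was present in the 3' UTR of 14 of the 25 tested regulators other than RBFOX1, which is 56% beside 36.5% of all 14050 tested protein-coding genes with an annotated 3' UTR. The regulators also have long 3' UTRs, with a median of 2621 bases against 1298, and per kilobase the sites were nearly as frequent in other genes (0.378 against 0.322). Of the 14 regulators with a site, 6 were higher, 4 lower and 4 did not pass the threshold. Of the 11 without, 5 were higher, 2 lower and 4 did not pass. Beside these, of 5131 tested protein-coding genes with a site, 1843 were higher, 1378 lower and 1910 did not pass. Of 8919 without, 2420 were higher, 2675 lower and 3824 did not pass. The median log2 fold change of the regulators was 0.14 with a site and 0.42 without. Among all tested protein-coding genes it was 0.064 with a site and -0.0091 without, so within these regulators the order was the reverse, over few genes and with no test. The tested genes with the most sites differed among themselves: QKI with 7 sites rose, MBNL1 with 4 rose by little, and MBNL3 with 7 was hardly expressed. NOVA1, with 6 sites, had no count and was not tested.

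**Figure D4:**
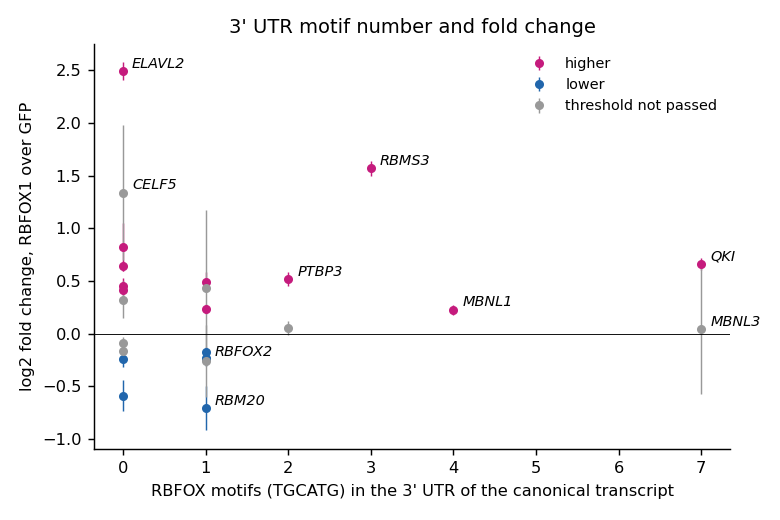
Number of TGCATG motifs in the 3' UTR of the canonical transcript (horizontal) and log2 fold change of RBFOX1 over GFP cells with its standard error (vertical) for the 25 tested regulators other than RBFOX1. ELAVL2, with no site, has the largest fold change at 2.49, and the genes with 1 site include both higher and lower ones.

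RBFOX proteins in the nucleus are bound by a large assembly of splicing regulators, LASR. Of 8 genes for its proteins, all tested, 6 were higher and 2 did not pass the threshold, with a median log2 fold change of 0.31. This is 75% of few and abundant genes, beside 46.7% of all genes and 63.8% of those with a mean of at least 50 normalized counts. By edgeR 0 were lower, also at an unadjusted p under 0.05, and 0 by DESeq2 or limma-voom. HNRNPUL2 had 114.7, 195.0 and 178.0 normalized counts in the GFP libraries and 350.1, 327.5 and 326.0 in RBFOX1 cells. Its log2 fold change was 1.09 (SE 0.135, adjusted p = 1.13e-06), or 0.84 without GFP replicate 1, the lowest library. Its level was low for this list, at 2.17 CPM per kilobase in GFP cells against 17.9 for HNRNPM. Whether HNRNPUL2 shares exons with another annotated gene was not checked, since that search covered only the regulators described here. HNRNPM rose by 0.55 on the log2 scale (SE 0.0818, adjusted p = 1.15e-05) and ILF2 by 0.33 (SE 0.0492, adjusted p = 1.23e-05). HNRNPH1 had a log2 fold change of 0.29 and HNRNPC of 0.13, the latter with an adjusted p of 0.0361 that was lost in 7 of the 14 other fits. DDX5, an RNA helicase, had a log2 fold change of -0.065 (SE 0.0485, adjusted p = 0.301). MATR3 shares its exons with an overlapping gene of the same name, so its 58 to 113 counts are an uncertain measure.

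A further list held 20 other genes for RNA-binding proteins, which are called other splicing regulators here only by the name of the list. Of these, 17 were tested, 9 were higher and 1 was lower, with a median log2 fold change of 0.24. The share called, 58.8%, lay between that of all genes (46.7%) and that of genes with a mean of at least 50 normalized counts (63.8%). SAMD4A, the mammalian Smaug protein, had 224.6, 212.5 and 252.8 normalized counts in the GFP libraries and 511.5, 508.5 and 493.1 in RBFOX1 cells, a log2 fold change of 1.13 (SE 0.0803, adjusted p = 3.86e-10). RBM4, RBPMS and RBM10 rose by 0.56, 0.46 and 0.45 (adjusted p = 0.00133, 0.00863 and 1.42e-06). Without GFP replicate 1, RBPMS had a log2 fold change of 0.30 and missed the threshold (adjusted p = 0.0762). ZNF638 was the gene that was lower, with a log2 fold change of -0.15 (SE 0.0464, adjusted p = 0.0141). HNRNPLL and SRRM2, both well expressed, had log2 fold changes of 0.11 and 0.18 and missed the threshold (adjusted p = 0.122 and 0.0988), but not in every fit. HNRNPLL passed without GFP replicate 1 (0.16, adjusted p = 0.0202) and with library totals only (adjusted p = 0.0222). SRRM2 passed in 4 of the 14 other fits (adjusted p = 0.0209 to 0.0488), and its log2 fold change was 0.078 without GFP replicate 1 and 0.080 without RBFOX1 replicate 1. FUBP3 and RBM11 had no count in any library, and RALYL had 1. Exons shared with other annotated genes were not looked for in this list, so a lack of counts does not show that a gene was silent.

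**Figure D5:**
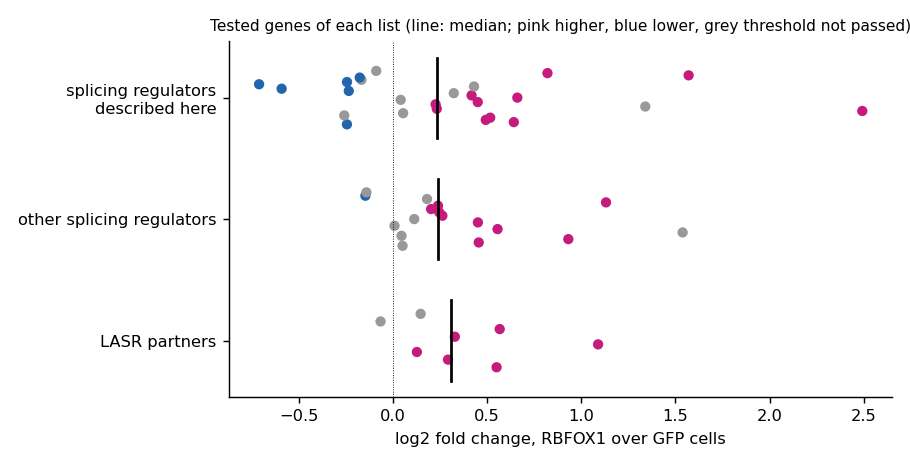
Log2 fold change of RBFOX1 over GFP cells for each tested gene of 3 lists, with the median of each list as a line; pink points passed the threshold upwards and blue points downwards. The medians are 0.23 for the regulators described here, 0.24 for the other splicing regulators and 0.31 for the LASR genes. Lower genes number 6 of 25, 1 of 17 and 0 of 8 in that order, beside 22.9% of all genes tested.

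Markers of cell types also differed between the groups. The share called was 75% of the tested neuronal, 85.7% of the epithelial, 66.7% of the striated muscle and 75% of the glial and glioma markers. These lists had 6 to 8 tested genes each. Among all genes 46.7% were called, and 63.8% of those with a mean of at least 50 normalized counts. Of 12 neuronal markers, 8 were tested, 5 were higher and 1 lower, and their summed level went from 5299 to 5733 normalized counts in GFP to 18318 to 20418 in RBFOX1 cells, mostly from the neurofilament gene NEFL (log2 fold change 2.20). STMN2 had 3, 2 and 1 counts in the GFP libraries and 32, 75 and 86 in RBFOX1 cells. Its log2 fold change of 5.34 (SE 0.324) rests on those few GFP counts. SYT1 fell by 1.17 on the log2 scale, SNAP25 had at most 2 counts in a library and DCX none. Of 10 epithelial markers, 7 were tested, 5 were higher and 1 lower, and the sum went from 8984 to 9255 in GFP to 32580 to 33909 in RBFOX1 cells, mostly from the keratin genes KRT8 and KRT18, with CDH1 at most at 5 counts and CLDN7 at 0. Of 10 striated muscle markers, 6 were tested and 4 were higher, with sums of 154.9 to 180.3 in GFP and 343.3 to 356.4 in RBFOX1 cells and MYOD1 at 0. Of 12 glial and glioma markers, 8 were tested, 2 were higher and 4 lower, with sums of 77515 to 78663 in GFP and 51012 to 51722 in RBFOX1 cells. The lower sum came mostly from VIM (59589 to 37905 normalized counts) and CD44 (13766 to 7366), while NES rose by 0.60 and SOX2, at a low level, by 2.53 on the log2 scale. VIM, NES and CD44 were abundant, SOX9 and OLIG2 were expressed, and GFAP, S100B, AQP4 and PTPRZ1 were at or near 0, so the defining astrocyte markers were not detectable above a few counts in these glioblastoma cells. The part of these shifts in the changes of the neuronal, epithelial and muscle regulators was not tested.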

How the data were processed

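RNA was sequenced from 3 GFP and 3 RBFOX1 libraries of A172 cells. The authors aligned rRNA-depleted, stranded read pairs with HISAT2 (GRCh38) and deposited raw HTSeq counts per gene (Ensembl release 87, intersection-strict), with no normalization. The authors' deposited DESeq2 table, which holds their own fold changes and p-values, was not used here.

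Here the counts were scaled by TMM, and RBFOX1 was compared with GFP by the quasi-likelihood test of edgeR (version 4.0.16 in R 4.3.3), without covariates. The test was two-sided and its p-values were adjusted by Benjamini-Hochberg over every gene reaching 10 counts in total. The SE is the fold change divided by the root of its F statistic. Normalized counts are scaled to the mean effective library size. Lines that name no gene, 38.1 to 48.0% of read pairs, were left out. GENCODE 44 gave symbols, lengths and 3' UTRs for 98.1% of identifiers. The procedure was first tested on simulated counts. DESeq2 1.42.0, voom in limma 3.58.1, other scalings and filters, stricter thresholds, a replicate block and the omission of each library served as alternatives.

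All 36 regulators were named. Full values were given for the RBFOX genes and for regulators that passed with a log2 fold change of 0.5 or more in size and a mean of 50 normalized counts. Values per library were also given outside this rule, for PTBP2, MBNL2, KHDRBS1, RBMS1, RBM20 and MSI1 among others. From the other splicing lists, up to 4 genes that passed and 2 that did not were named by size, and further genes after their values were seen. A gene of the LASR list that the rule also named is not reported here. The regulators and lists were chosen with earlier results of these data known.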

Additional observations from a re-analysis of the deposited data

How the results depend on the processing

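Of 361 values of single regulators under 14 other fits, 337 kept their direction and side of the threshold, 14 lost the threshold, 4 gained it and 6 changed sign, each of the 6 in a gene that did not pass. These were ELAVL1 without GFP replicate 1 (-0.017), MBNL3 with DESeq2 (-0.027), with the replicate block (-0.089), without GFP replicate 1 (-0.47) and without RBFOX1 replicate 1 (-0.11), and ESRP2 without RBFOX1 replicate 1 (-0.00038). In the other lists RBM47 changed sign without GFP replicate 1 (-0.052) and RBM4B with upper-quartile scaling (-0.015), with no filter (-0.0012) and without GFP replicate 3 (-0.041). Without 1 library at a time, the log2 fold change ran from -0.017 to 0.12 for ELAVL1, -0.47 to 0.32 for MBNL3, -0.00038 to 0.75 for ESRP2, -0.052 to 0.11 for RBM47 and -0.041 to 0.072 for RBM4B.

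A log2 fold change of 0.5 in size as a further condition left 7 regulators higher and 2 lower in place of 12 and 6 (RBFOX1 itself counted among the higher), 3 of the LASR genes higher in place of 6, 3 of the other splicing regulators higher in place of 9 and 0 lower in place of 1, and 2983 genes higher and 2407 lower overall. The lower gene of the other splicing regulators was also lost (0 lower) with library totals only, at an adjusted p under 0.01 and without RBFOX1 replicate 1 or 2. Leaving out 1 library left 3 to 7 regulators lower and 0 to 1 of the other splicing regulators. With coding length for exon length, the family share in RBFOX1 minus that in GFP cells was -90.7 percentage points for RBFOX2 (-87.2 with exon length), 28.9 for ELAVL2 (34.2), 15.7 for RBMS3 (11.98) and 1.30 for MSI1 (7.74). For RBFOX2 neither length fits both main genes of the family, so the closeness of its values does not show that the share is well measured. GCATG in place of TGCATG was found in 28 regulators in place of 19. Libraries with the same replicate number gave no sign of pairing (correlations of deviations of -0.0326 to 0.0156), which cannot exclude that they were handled together. A fit with the replicate block called 12 regulators higher, RBFOX1 included, and 6 lower. Scaling by library totals moved the median of all genes to 0.055. For low counts such as MBNL3, ESRP2 and CELF5 the depth gives no direction. The causes of these changes were not tested.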
